A study of Mustela putorius furo and Mus musculus with 4 samples.

Results

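The cells described here are interneurons of the developing ferret cortex that carry transcripts of *ADARB2*, a brain-specific member of the *ADAR* family of RNA editing enzymes that is itself not known to edit RNA. They come from the bilateral cortex of 1 wild type ferret embryo (Mustela putorius furo) at embryonic day 39, dissociated and profiled by droplet-based single-cell RNA sequencing, in which reads are collapsed by their unique molecular identifier (UMI) so that 1 UMI stands for 1 captured transcript. A cell was taken when at least 750 genes were detected, when it had a UMI of *ADARB2* and a UMI in at least 2 of the genes *NPAS1*, *NR2F2*, *DLX1*, *ERBB4*, *GAD1*, *GAD2* and *PDZRN3*, and when it had no UMI of *LHX6*, *SST* or *NEUROD6*. This left 585 of 23241 ferret cells with 750 genes (2.52%, exact Clopper-Pearson 95% interval 2.32 to 2.73), out of 23482 ferret cells and 41602 cells in all. The other 18120 cells are from CD1 mouse cortex at embryonic day 18, in 1 library of *Smo* CKO cortex, where a human GFAP promoter drives Cre in radial glia and removes floxed *Smo*, and 1 library labelled wild type, which by the methods are littermates with floxed *Smo* and no Cre, both sorted for a dye injected into the ventricle. The labels list the ferret cortex as 2 samples, but the barcodes show only a numeric ending that could not be tied to either, so the cells are given as set 1 and set 2 of 1 embryo. The sets are not replicates. No test between conditions exists for these cells, no p-value is given, and every interval covers counting error only.

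Cortical interneurons arise outside the cortex, in the ganglionic eminences of the ventral forebrain, and migrate tangentially into it. Cells of the medial eminence switch on *LHX6* and *SOX6* and become *SST* or parvalbumin interneurons. Cells of the caudal eminence keep the orphan nuclear receptors *NR2F1* and *NR2F2* with *PROX1* and *SP8*, and become the neuropeptide and reelin interneurons of the upper layers, in which *ADARB2* stays on in the adult. DLX transcription factors, the GABA-synthesizing enzymes *GAD1* and *GAD2* and the neuregulin receptor *ERBB4* are shared by both lineages.

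The 585 cells held 1554391 UMIs, with a median of 2434 per cell (lowest 1008, highest 13263) and a median of 1455 genes. Set 1 gave 73 of its 10187 cells (0.717%, 0.562 to 0.900) and set 2 gave 512 of its 13054 (3.92%, 3.60 to 4.27). The *LHX6* or *SST* cells, chosen in the same way with a UMI of *LHX6* or *SST* and without *ADARB2* and *NEUROD6*, were also fewer in set 1 (44 cells, 0.432%) than in set 2 (409 cells, 3.13%). *NEUROD6* cells, which are excitatory neurons without *GAD1*, *GAD2*, *DLX1*, *LHX6*, *SST* and *ADARB2*, went the other way, with 62.1% of set 1 and 53.6% of set 2. Both interneuron classes were thus scarcer in set 1, where the lowest cell had 1501 UMIs against 1001 in set 2. Among cells with at least 2000 UMIs, the *ADARB2* interneurons were 32 of 7391 in set 1 and 396 of 11516 in set 2, so they were also scarcer in set 1 above a common depth. The sets shared 38 barcodes, and none belonged to an *ADARB2* interneuron. Mitochondrial transcripts made up a median of 1.07% of the UMIs (highest 7.73%).

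The genes of the rule were present by construction and are given as a description. *ADARB2* had a median of 7 UMIs per cell (lowest 1, highest 36), and 31 cells had a single UMI of it. *ERBB4* was found in 99.7% of the cells, *DLX1* in 75.6%, the transcription factor gene *NPAS1* in 64.4%, the ubiquitin ligase gene *PDZRN3* in 64.3%, *NR2F2* in 54.7%, *GAD1* in 46.8% and *GAD2* in 40.5%. *NR2F2* was thus not seen in every cell of the population. At the edge of the rule, the 39 cells with exactly 2 of the 7 genes had a median of 4 *ADARB2* UMIs, and 82.1% of them had a UMI of *GALNTL6*. At least 2 of 9 pyramidal genes, which mark cortical excitatory neurons, were found in 15.4% of these 39 cells. The 40 cells just outside, with 1 of the 7, had a median of 1 *ADARB2* UMI, 17.5% had *GALNTL6* and 17.5% had at least 2 pyramidal genes. Of all 1577 cells with an *ADARB2* UMI, 776 also had a UMI of *NEUROD6*, and 615 of these had fewer than 2 of the 7 genes.

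The label was checked with genes that the rule had not used, in lists written with earlier results of these data known. *GALNTL6* is among them and was already named as a marker of these cells, so it is no independent check. At least 2 of 8 further inhibitory genes (among them *DLX2*, *DLX5*, *DLX6*, *SLC32A1*, *SP9* and *GALNTL6*) were detected in 519 of the 585 cells (88.7%, 85.9 to 91.2), in 81.5% of *LHX6* or *SST* cells, in 1.20% of *NEUROD6* cells and in 5.51% of progenitor cells (at least 3 of *SOX2*, *PAX6*, *HES1*, *HES5* and *SLC1A3*). The progenitor cells also had no UMI of *ADARB2*, *LHX6*, *SST*, *GAD1*, *GAD2*, *DLX1* or *NEUROD6*. Both *NEUROD6* and progenitor cells were thus chosen without inhibitory genes, which lowers their shares in advance. Among the *ADARB2* interneurons the share was 79.5% in set 1 and 90.0% in set 2. Without *GALNTL6*, an alternative added after seeing the data, it was 64.1% in the *ADARB2* interneurons, 72.6% in *LHX6* or *SST* cells and 0.165% in *NEUROD6* cells. In set 1 of the *ADARB2* interneurons it was then 42.5% (31 of 73 cells, 31.0 to 54.6) and in set 2 67.2% (62.9 to 71.2). At least 2 of 9 pyramidal genes (among them *NEUROD1*, *NEUROD2*, *SLC17A6*, *SLC17A7*, *TBR1*, *BHLHE22*, *FEZF2* and *EMX1*) were detected in 18 of the *ADARB2* interneurons (3.08%, 1.83 to 4.82), against 85.5% of *NEUROD6* cells. These 18 cells were 9.59% of set 1 and 2.15% of set 2. Without *GALNTL6*, 2 further inhibitory genes were thus detected in most cells of set 2 but not of set 1.

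Markers of microglia, vessels, glia and subplate neurons were near 0. At least 2 genes of a list were found in 1 of the 585 cells for microglia (6 genes, 30.2 CPM in sum, where CPM are summed UMIs scaled to the total of the cell set), in 2 for vascular and mural cells (10 genes, 33.5 CPM), in 7 for the glial lineage (8 genes, 39.9 CPM), in none for subplate neurons (5 genes, 6.43 CPM) and in 23 (3.93%) for cycling cells (10 genes, 147 CPM). *NEUROD6* cells had sums of 25.7, 37.7, 17.6, 37.5 and 192 CPM for the same lists. The 12 radial glia genes summed to 2221 CPM in the *ADARB2* interneurons, 1950.2 CPM in *LHX6* or *SST* cells, 5984 CPM in *NEUROD6* cells and 23382 CPM in progenitor cells. Most of this was *FABP7*, which had a UMI in 82.7% of the *ADARB2* interneurons (1526 CPM), in 63.1% of *LHX6* or *SST* cells, in 99.5% of *NEUROD6* cells and in all progenitor cells (17823 CPM). Its part in the results was not tested.

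**Figure D1:**
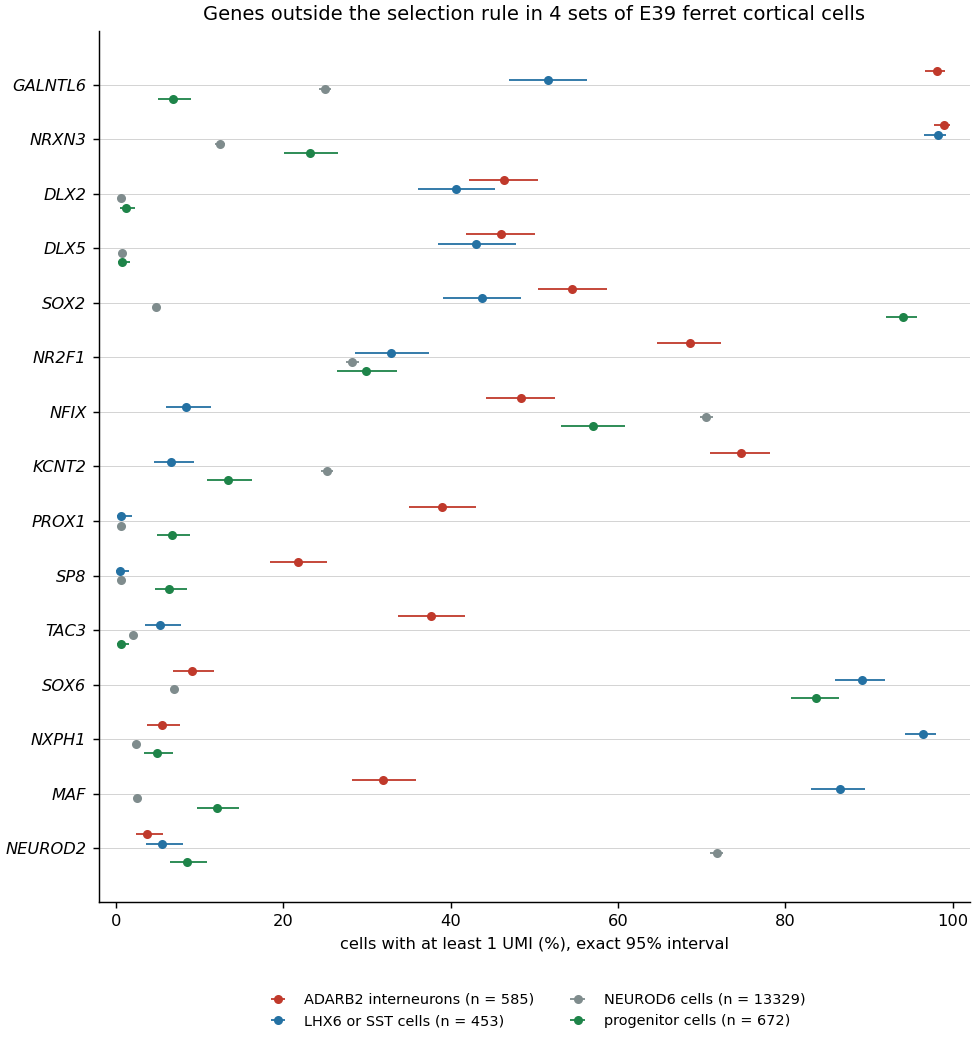
Share of cells with at least 1 UMI (x axis, %) of 15 genes outside the selection rule (y axis) in the ADARB2 interneurons (red), LHX6 or SST cells (blue), NEUROD6 cells (grey) and progenitor cells (green); points are shares and bars exact Clopper-Pearson 95% intervals. DLX2 and DLX5 have overlapping intervals in the interneuron sets and are near 0 elsewhere, PROX1 and SP8 stand out in the ADARB2 interneurons, and SOX6, NXPH1 and MAF in the LHX6 or SST cells. The NEUROD6 and progenitor cells had been chosen without GAD1, GAD2 and DLX1.

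Among the inhibitory genes, *GALNTL6*, a member of the GalNAc transferase family, set the cells apart. It had a UMI in 574 of the 585 cells (98.1%, 96.7 to 99.1), with 6889 CPM in set 1 and 8486 CPM in set 2. *LHX6* or *SST* cells had 208 and 1095 CPM in the same sets and a UMI in 51.7% of cells, *NEUROD6* cells 148 CPM and progenitor cells 20.2 CPM. The levels of the *ADARB2* interneurons were above those of every other cell set in both barcode sets. *DLX2* (found in 46.3%) and *DLX5* (46.0%), homeobox genes of the inhibitory lineage, and *SLC32A1* (13.8%), the vesicular GABA transporter, were seen in part of the cells. In *NEUROD6* cells none of these 3 genes was found in more than 0.698% of cells. Expected shares at 2000 UMIs per cell, over the 428 cells that reach that depth, were 97.8% for *GALNTL6*, 40.3% for *DLX2* and 38.1% for *DLX5*.

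The comparison with *LHX6* or *SST* cells asks how the *ADARB2* interneurons differ from the other interneuron lineage of the same cortex. UMIs were summed over the cells of each set, and a gene was counted as higher or lower when the ratio of CPM passed 2-fold in the same direction in set 1 and in set 2. Of 7630 genes with at least 50 UMIs, 227 (2.98%) were higher in the *ADARB2* interneurons and 179 (2.35%) were lower, together 5.32%, with a median log2 ratio over all genes of -0.000649. Set 2 alone gave 323 and 330, and set 1 alone, with 44 *LHX6* or *SST* cells and fewer genes that reach 50 UMIs, gave 61 and 44.

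**Figure D2:**
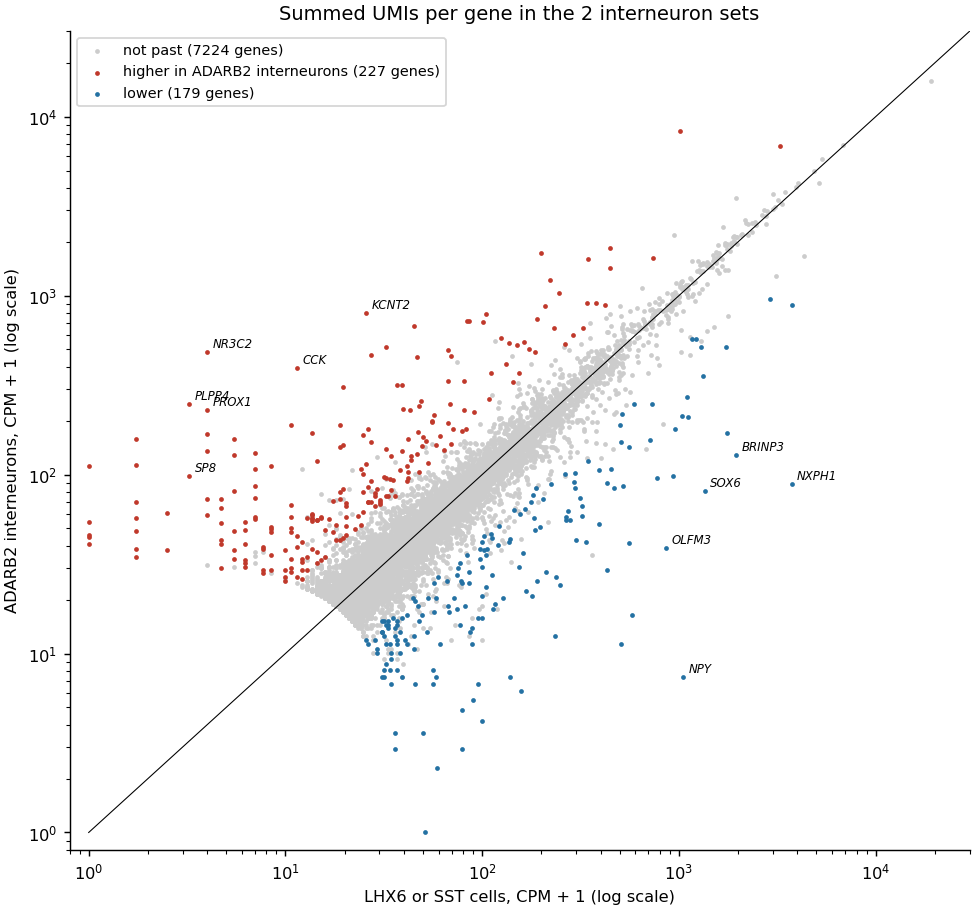
Summed UMIs per gene as CPM + 1 on log scales in the ADARB2 interneurons (y axis) and in LHX6 or SST cells (x axis), one point per gene; red points are the 227 genes higher and blue points the 179 genes lower in the ADARB2 interneurons past 2-fold in both barcode sets, and the line marks equal levels. Most genes lie along the line, with PROX1, NR3C2 and KCNT2 well above it and NPY, NXPH1 and SOX6 well below.

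Outside the rule, 9 genes of the caudal ganglionic eminence list could be compared, of which 6 were higher (*NR2F1*, *PROX1*, *SP8*, *NFIB*, *NFIX* and *CXCL14*) and 1 was lower (*RELN*, which medial eminence interneurons also express), with a median log2 ratio of 3.03. *PROX1*, a homeobox gene of caudal interneurons, had 277 against 15.4 CPM in set 1 and 223 against 1.65 CPM in set 2. The *PROX1* ratio was 76.7 (29.7 to 283), from 356 UMIs in the *ADARB2* interneurons and 4 in the *LHX6* or *SST* cells. *SP8*, a zinc-finger gene of the caudal and lateral eminences, was at 98.3 and 97.7 CPM in sets 1 and 2 of the *ADARB2* interneurons, with 3 UMIs in all *LHX6* or *SST* cells (ratio 43.7, 14.7 to 214). For both genes, each set of the *ADARB2* interneurons was above each set of *LHX6* or *SST* cells. *NR2F1*, a paralogue of *NR2F2*, had 546 against 162 CPM and a ratio of 3.37 (2.90 to 3.93). *NFIB* had 1266 against 439 CPM in set 1 and 1783 against 172 CPM in set 2. *NFIA*, of the same nuclear factor I family, had 467 against 416 CPM in set 1 and 459 against 112 CPM in set 2, and so was not counted as higher. *NFIX* and *NFIB* were not restricted to the *ADARB2* interneurons, since *NEUROD6* cells had 402 CPM of *NFIX* and 1072 CPM of *NFIB*.

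All 9 compared genes of the medial ganglionic eminence outside the rule were lower (among them *MAF*, *SATB1*, *NXPH1*, *NXPH2*, *ETV1*, *SOX6*, *PDE1A* and *KCNC2*), with a median log2 ratio of -2.89. The cell sets had been chosen by *LHX6*, *SST* and *ADARB2*, and the lists written with these data known. Neither this count nor that of the caudal genes is thus independent evidence of the direction. *SOX6*, which acts below *LHX6*, had 86.0 against 631 CPM in set 1 and 79.8 against 1427 CPM in set 2. *NXPH1*, a secreted ligand of neurexins, had 30.7 against 1808 CPM in set 1 and 94.1 against 3947 CPM in set 2, and the ratio was 0.0234 (0.0196 to 0.0277). Its paralogue *NXPH2* had a ratio of 0.0269 (0.0171 to 0.0403). *MAF* was lower but not lost, with a UMI in 32.0% (28.2 to 35.9) of the *ADARB2* interneurons against 86.5%, and 271 against 1096 CPM. *NEUROD6* cells had *MAF* in 2.48%. *NKX2-1*, the founder gene of the medial eminence, was found in 3 and *LHX8* in 0 of the 585 cells, the latter allowing a share of up to 0.513% of cells with a UMI, which sets no limit on cells that express it below detection.

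**Figure D3:**
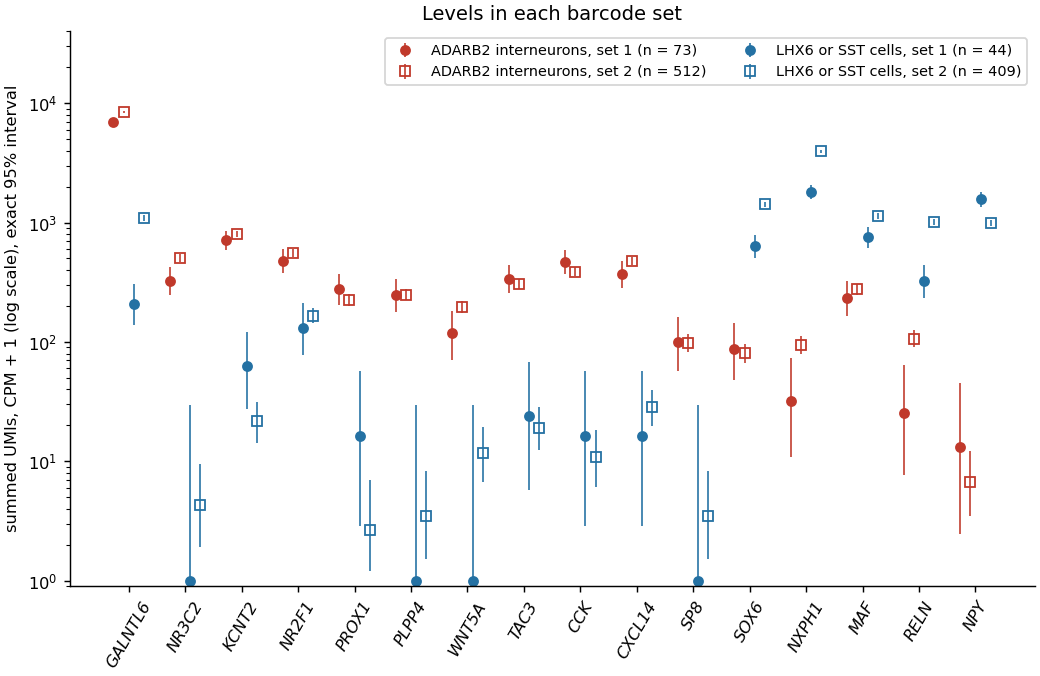
CPM + 1 of summed UMIs (y axis, log scale) of 16 genes (x axis) in the ADARB2 interneurons (red) and LHX6 or SST cells (blue), in barcode set 1 (filled circles) and set 2 (open squares); bars are exact Poisson 95% intervals. From GALNTL6 to SP8 both red points lie above both blue points, from SOX6 to NPY below, and LHX6 or SST cells of set 1 had no UMI of NR3C2, PLPP4, WNT5A or SP8.

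Other genes outside these lists differed by as much. The mineralocorticoid receptor gene *NR3C2* had 326 CPM in set 1 and 503 CPM in set 2 of the *ADARB2* interneurons, and 4 UMIs in all *LHX6* or *SST* cells (2.98 CPM). *VWC2L*, a secreted protein with a von Willebrand C domain, had 245 UMIs against 1 (ratio 211, 37.6 to 8378), and *PLPP4*, a phospholipid phosphatase, 384 against 3 (ratio 110.4, 37.5 to 538). A count of 0 in the *LHX6* or *SST* cells of set 1 allows up to 23.1 CPM. Among channels, *KCNT2*, a sodium-activated potassium channel, had 713 against 61.6 CPM in set 1 and 808 against 20.7 CPM in set 2, and *KCNJ3*, a G protein-gated inward rectifier, 167 against 2.98 CPM. Both channels were higher in each set. *SORCS3*, a sorting receptor, had 158 against 4.48 CPM, *PARM1* 134 against 2.98 CPM, and *CADPS2*, a priming factor of dense-core vesicles, 72.1 against 2.98 CPM. Of 13 compared genes that go with *ADARB2* in adult interneurons, 7 were higher (*GALNTL6*, *KCNT2*, *CNTN5*, *LUZP2*, *SYNPR*, *CNR1* and *PROX1*) and *FSTL5* was lower, with a median log2 ratio of 1.73. *CNTN5*, an adhesion molecule, had 367 against 109.7 CPM, and *LUZP2* 331 against 79.8 CPM. The list was written with these data known and is not independent evidence of the direction.

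On the lower side, the neuropeptide gene *NPY* had 6.43 against 1052 CPM (ratio 0.00612, 0.00293 to 0.0113), and 10 of the *ADARB2* interneurons had a UMI of it, each a single one. Its share in them (1.71%) was below that in *NEUROD6* cells (2.27%), which were deeper (median 3295 UMIs per cell against 2434). The receptor phosphatase gene *PTPRM* had 10.3 against 506 CPM and the olfactomedin gene *OLFM3* 38.0 against 856 CPM. Genes for the metabotropic glutamate receptor *GRM8* (11.6 against 234 CPM) and for *ACKR3*, an atypical receptor of the chemokine *CXCL12* (4.50 against 88.8 CPM), were lower as well. The other named genes that were lower were *PKIB* (3.22 against 98.5 CPM), *MGLL*, which degrades an endocannabinoid (3.86 against 77.6 CPM), and *BRINP3* (128 against 1959 CPM). In set 1 the *ADARB2* interneurons had no UMI of *PKIB*, against 30.8 CPM, too few counts to show a 2-fold fall there.

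**Figure D4:**
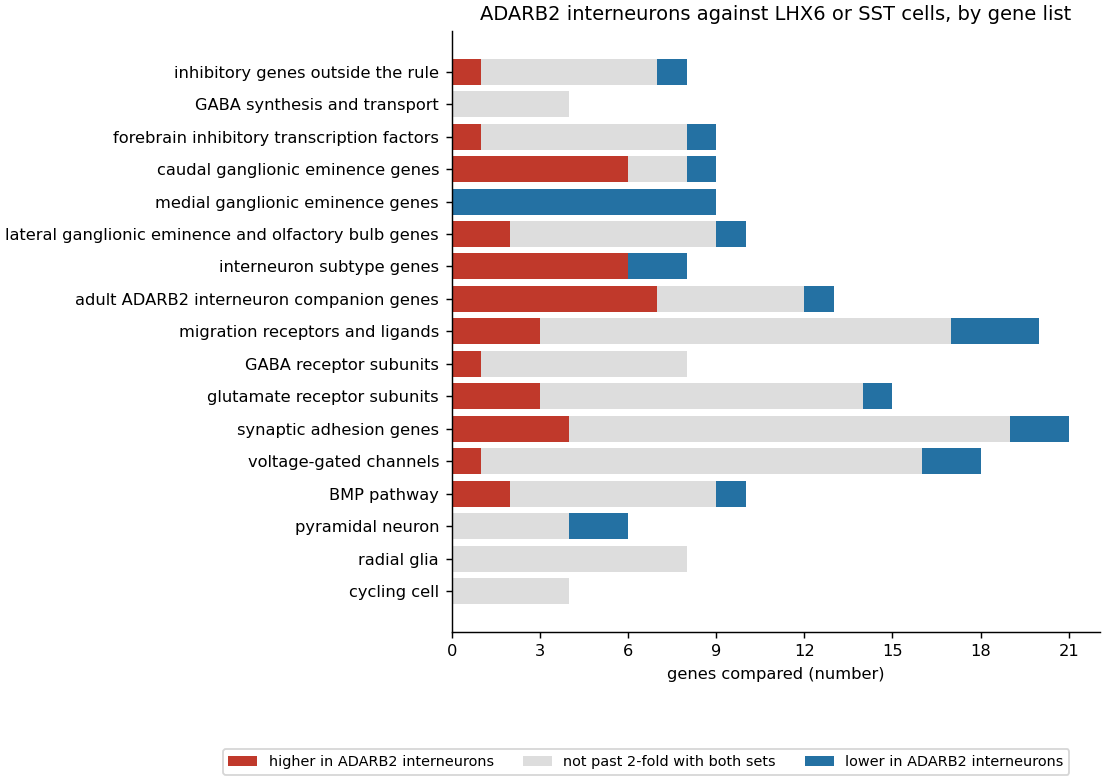
Number of genes compared (x axis) per gene list (y axis) between the ADARB2 interneurons and LHX6 or SST cells; red, higher, grey, not past 2-fold in both barcode sets, and blue, lower in the ADARB2 interneurons. The 9 medial eminence genes are all lower, 6 of 9 caudal eminence genes are higher, and none of 4 genes of GABA synthesis and transport passed in either direction.

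None of 4 compared genes for GABA synthesis and transport outside the rule (among them *SLC32A1*, *SLC6A11* and *ABAT*) passed 2-fold in both sets. Of 20 migration receptors and ligands, 3 were higher (*EPHA4*, *PLXNA4* and *SLIT1*) and 3 lower (*DCC*, *UNC5D* and *ACKR3*). *SLIT1*, a repulsive ligand, had 111 against 7.46 CPM, and the netrin receptor gene *DCC* 65.6 against 321 CPM. *CXCR4*, the signaling receptor of *CXCL12* that guides migrating interneurons, was at 258 against 69.3 CPM in set 1 and 543 against 280.1 CPM in set 2 and did not pass the threshold. *ACKR3*, with which *CXCR4* shares its ligand, was found in 5 of the 585 cells, while *CXCR4* was found in 388 (66.3%, 62.3 to 70.1).

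Of 15 glutamate receptor genes, 3 were higher, among them *GRIA4* and *GRM7*, and *GRIK3* was lower, with a median log2 ratio over the list of -0.33. The AMPA receptor subunit *GRIA4* had 313 against 53.9 CPM in set 1 and 606 against 131 CPM in set 2. The kainate receptor subunit *GRIK3* was found in 5.98% against 39.7% of cells. Of 8 GABA receptor subunits, *GABRB2* was higher (82.3 against 28.3 CPM). Of 18 voltage-gated channels, *KCND3* was higher (82.3 against 18.7 CPM), and 2 were lower, among them *KCNC2*, a channel of fast-spiking cells (57.9 against 322 CPM). Of 21 synaptic adhesion genes, 4 were higher, among them *PCDH17*, *CNTN5* and *DSCAM*, and *CNTNAP4* and *ALCAM* were lower. As 2.98% of all compared genes were higher and 2.35% lower, the single higher gene among the subunits and among the channels is given as a value and not as a result about its list. Of 10 genes of the bone morphogenetic protein pathway, *ID2* (74.6 against 27.6 CPM) and *SMAD9* (32.8 against 4.48 CPM) were higher and *ID1* (9.01 against 28.3 CPM) was lower. The editing enzymes proper, *ADAR* (27.0 against 28.3 CPM) and *ADARB1* (63.0 against 42.5 CPM), did not pass in either direction.

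The comparison with *NEUROD6* cells sets the interneurons against the excitatory neurons around them. Of 14232 genes compared, 630 (4.43%) were higher and 740 (5.2%) were lower, together 9.63%, with a median log2 ratio of 0.11. Set 2 alone gave 940 and 1170 and set 1 alone 1699 and 2261. All 8 inhibitory genes outside the rule were higher and all 9 pyramidal genes were lower, with list medians of 5.70 and -3.66. The cell sets had been chosen by *NEUROD6* and by inhibitory genes, so these directions were largely set in advance. *NRXN3*, a neurexin, had 5768 against 61.7 CPM, *PLS3*, an actin-bundling protein, 333 against 1.72 CPM, *CXCR4* 513 against 3.48 CPM and *WNT5A*, a ligand of non-canonical Wnt signaling, 187 against 0.946 CPM. The phosphatase gene *INPP4B* had 104 against 2.63 CPM in set 1 and 341 against 4.20 CPM in set 2. Each of these genes was higher in both barcode sets. *NEUROD2* had 16.1 against 405 CPM, and *SLC17A6*, a vesicular glutamate transporter, 3.22 against 88.5 CPM.

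*TAFA1*, a secreted protein of neurons, had 98.3 against 833 CPM in set 1 and 37.4 against 1266 CPM in set 2, and the neuritin gene *NRN1* 30.7 against 81.6 CPM in set 1 and 2.87 against 98.6 CPM in set 2. Both were lower in each set, and in the *ADARB2* interneurons both were higher in set 1 than in set 2. *BHLHE22*, a transcription factor gene of excitatory neurons, had 12.9 against 253 CPM, *MEIS2* 62.4 against 809 CPM, and *COL24A1* 11.6 against 161 CPM. Of 19 glutamate receptor genes, 7 were higher (among them *GRIA1*, *GRIA4*, *GRIK2*, *GRID1*, *GRIN2B* and *GRIN2D*) and 1 lower (*GRIN2A*). Of 25 migration genes, *CXCR4*, *EPHA5*, *SLIT1* and the chloride importer gene *SLC12A2* were higher and 7 were lower (*SLIT2*, *EPHB1*, *PLXNA4*, *DCC*, *CXCL12*, *UNC5D* and *NRG1*). *EPHA5*, an ephrin receptor, had 3502 against 829.8 CPM, and *SLC12A2* 68.8 against 9.76 CPM. *SLC12A5*, the chloride exporter gene of mature neurons, was found in 3 of the 585 cells. Of 18 voltage-gated channels, 5 were higher (among them *CACNA2D3*, *KCND3*, *KCNC2* and *CACNA1C*) and 1 lower (*CACNA2D1*). Of 13 genes of the bone morphogenetic protein pathway, 3 were higher (*ACVR1*, *BMPR1B* and *SMAD9*), with *ACVR1*, a receptor gene, at 63.0 against 21.3 CPM.

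Of 12 radial glia genes, 4 were lower than in *NEUROD6* cells (*NES*, *PTPRZ1*, *FABP7* and *EMX2*). *SOX2*, a transcription factor of neural stem cells, was the only one that was higher, with a ratio of 15.2 (13.7 to 16.8). It was found in 319 of the 585 cells (54.5%, 50.4 to 58.6), in 43.7% of *LHX6* or *SST* cells, in 4.83% of *NEUROD6* cells and in 94.0% of progenitor cells, which were chosen in part by it. In sets 1 and 2 of the *ADARB2* interneurons it had 234 and 377 CPM. *PAX6* was found in 5.13% and *HES1* in 1.03% of the *ADARB2* interneurons, against 3.59% and 1.21% of *NEUROD6* cells. Proliferation genes were rare, with *MKI67* in 11 and *TOP2A* in 20 of the 585 cells.

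The genes with the highest ratio of their share in the 585 cells to that in the other 22656 ferret cells, some of which also had a UMI of *ADARB2*, were *WNT5A*, *PLPP4*, *WSCD2*, *PLS3*, *PROX1*, *DLX6*, *VWC2L*, *RGS16*, *SLC32A1* and *DLX2*. *WNT5A* was found in 37.1% of the *ADARB2* interneurons and 0.830% of the others, a ratio of 44.7, and *PLPP4* in 39.5% of the *ADARB2* interneurons and 1.54% of the others, a ratio of 25.6. *DLX2*, the last of the 10, was found in 46.3% of the *ADARB2* interneurons and 2.56% of the others, a ratio of 18.1. *DLX2*, *DLX6* and *SLC32A1* are genes of all cortical interneurons. The remaining 7 include *PROX1*, which marks the caudal lineage.

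Genes that mark interneuron subtypes in the adult were uneven at this stage. Of 8 such genes that could be compared with *LHX6* or *SST* cells, 6 were higher (*TAC3*, *CCK*, *CNR1*, *KIT*, *CXCL14* and *ID2*) and 2 lower (*RELN* and *NPY*). *TAC3*, the precursor of neurokinin B, was found in 220 cells (37.6%, 33.7 to 41.7), with 338 CPM in set 1 and 303 CPM in set 2, against 18.7 CPM in *LHX6* or *SST* cells and 5.88 CPM in *NEUROD6* cells. The cannabinoid receptor gene *CNR1* was found in 190 cells (32.5%), and *SYNPR*, the synaptic vesicle protein synaptoporin, in 93 (15.9%). *TAC3* and *CNR1* were thus spread over many cells.

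*CCK*, the cholecystokinin gene, was concentrated in few. It was found in 94 of the 585 cells (16.1%, 13.2 to 19.3), with up to 62 UMIs in a cell, and 10 cells held 56.7% of its 614 UMIs. *CXCL14*, a chemokine gene, was found in 90 cells (15.4%, 12.6 to 18.6), with up to 40 UMIs, and 10 cells held 39.6% of its 718 UMIs. In *NEUROD6* cells *CCK* was found in 8.40% and *CXCL14* in 6.33% of cells, but at 27.4 and 21.6 CPM against 395 and 462 CPM in the *ADARB2* interneurons. The levels were thus above those of *NEUROD6* cells, whereas the shares were closer. The receptor gene *KIT* was found in 71 cells (12.1%), against 1.10% of *LHX6* or *SST* cells and 18.5% of *NEUROD6* cells, and *ID2* in 15.9%, against 7.28% and 34.9%. Both shares were thus below those of *NEUROD6* cells and above those of *LHX6* or *SST* cells. *RELN*, the reelin gene, was found in 57 cells (9.74%) at 97.1 CPM, against 65.1% of *LHX6* or *SST* cells at 937 CPM. *SNCG* was found in 17 cells and *CRH* in 14, and in no *LHX6* or *SST* cell. *CALB2* was found in 3 cells, *HTR3A*, the serotonin receptor gene used to mark this lineage in the mouse, in 1, and *LAMP5*, *NDNF*, *CALB1* and *CHAT* in 0 of 585, which allows a share of up to 0.513% of cells with a UMI of each and likewise sets no limit on expression below detection.

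**Figure D5:**
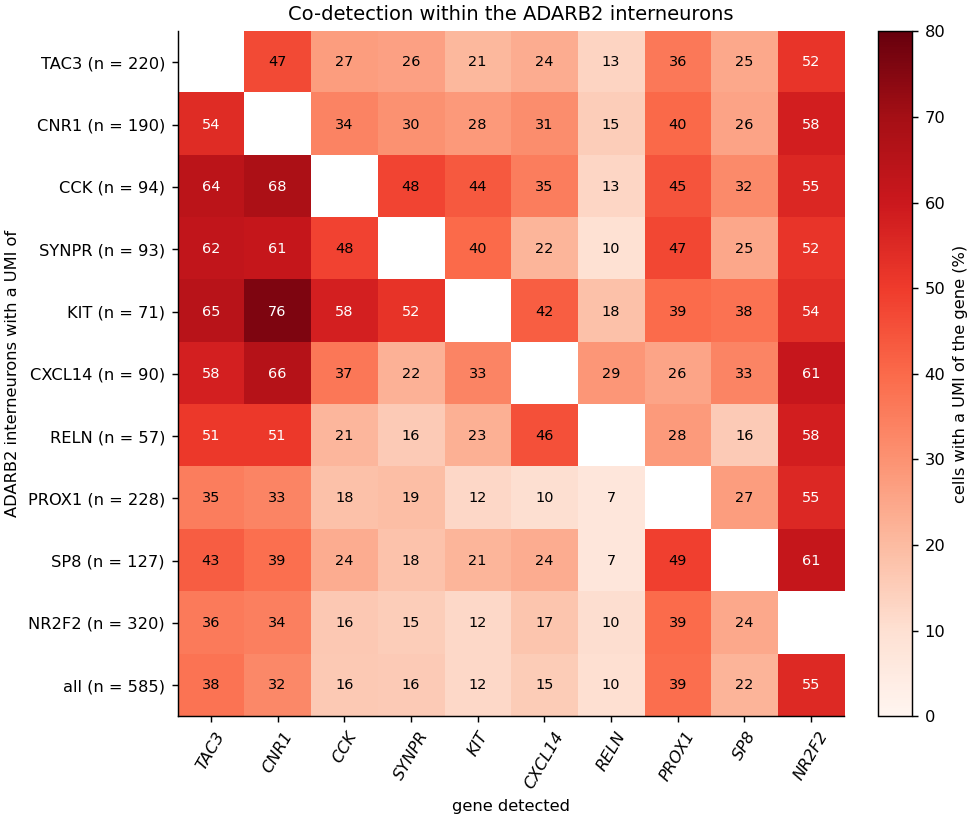
Percentage of cells with a UMI of the gene in each column among the ADARB2 interneurons with a UMI of the gene in each row (numbers of cells in brackets); the bottom row gives all 585 cells. The rows for CCK, SYNPR and KIT are darker than the bottom row in the columns of TAC3, CNR1, CCK, SYNPR and KIT, while the NR2F2 column differs little between rows.

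Several subtype genes were found in the same cells. These pairs were chosen after their values had been seen and are a description. *CNR1* was found in 68.1% (57.7 to 77.3) of cells with and 25.7% (21.9 to 29.8) of cells without a UMI of *CCK*. For *KIT* the shares were 43.6% (33.4 to 54.2) of cells with and 6.11% (4.16 to 8.61) of cells without, and for *SYNPR* 47.9% against 9.78%. The cells with *CCK* were deeper (median 2988.5 UMIs) than those without (2382), and at an equal depth of 2000 UMIs the expected shares were 58.9% and 24.3% for *CNR1*, 33.3% and 5.27% for *KIT* and 43.9% and 9.34% for *SYNPR*. The differences remained at equal depth. *TAC3* went with *CCK* in the same direction (63.8% against 32.6%).

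*CXCL14* overlapped with this group in part. Cells with *CXCL14* had *CNR1* in 65.6% against 26.5% of those without, and *CCK* in 36.7% against 12.3%. In summed UMIs *CNR1* was at 540.1 against 173 CPM in set 2 but at 149 against 140 CPM in set 1, and so did not pass 2-fold in both sets. *SYNPR* differed less, at 22.2% against 14.7%, and 16.0% and 14.2% at 2000 UMIs. *RELN* was found in 28.9% (19.8 to 39.4) of cells with and 6.26% (4.29 to 8.77) of cells without *CXCL14*, whereas the shares with and without *CCK* were 12.8% against 9.16%. *PROX1* was found in 25.6% (16.9 to 35.8) of cells with and 41.4% (37.0 to 45.9) of cells without *CXCL14*, and at 2000 UMIs in 18.3% and 36.6%. *CCK* did not share this pattern, with *PROX1* in 44.7% against 37.9%. *NR2F2* was found in similar shares with and without *CCK* (55.3% against 54.6%) and *TAC3* (51.8% against 56.4%).

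The transcription factors were paired in the same way, and *NR2F2* and *NPAS1* are genes of the rule, so that cells without one of them had been taken for others of the 7. *NR2F1* was found in 72.5% (67.3 to 77.3) of cells with and 63.8% (57.7 to 69.6) of cells without *NR2F2*, and *PROX1* was found in 39.4% (34.0 to 45.0) of cells with and 38.5% (32.6 to 44.6) of cells without it. *SP8* was found in 24.4% against 18.5% of cells with and without *NR2F2*, and *PROX1* in 48.8% against 36.2% of those with and without *SP8*, which became 37.0% and 32.8% at 2000 UMIs. *NPAS1* was found in 60.8% against 72.3% of cells with and without *NR2F1*. *MEIS2*, a gene of the lateral eminence and of excitatory neurons, and *SOX6* were found together in 14 cells, with *SOX6* in 23.3% (13.4 to 36.0) of cells with and 7.43% (5.34 to 10.0) of cells without *MEIS2*.

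Whole profiles were also compared within the 585 cells, between those with and without a UMI of a given gene. A cell without a UMI may still express the gene. In set 1 the cells with a UMI were few, from 10 for *CXCL14* to 38 for *NR2F2*. A gene can thus count as lower there with no UMI or a single one, or as higher on few UMIs, and the counts include such genes. *NR2F2* is a gene of the rule, and its split (320 cells with, 265 without) is a description. With it, 10 of 5347 genes were higher (0.187%) and 5 were lower (0.0935%), and 5 and 1 without the 18 cells with pyramidal genes. *CADPS2* was higher with *NR2F2* (109 against 24.9 CPM, ratio 4.36, 2.59 to 7.80), as were the diacylglycerol kinase gene *DGKB* (162 against 63.1 CPM) and *CRIM1* (104 against 45.5 CPM). In set 1 *DGKB* (101 against 47.9 CPM) and *CRIM1* (75.7 against 36.0 CPM) were barely past 2-fold, on few UMIs. *PROX1* (228 with, 357 without) went with 1 higher gene (0.0187%) and 8 lower (0.15%) of 5346. Among the lower ones were *CXCL14* (171 against 655 CPM, ratio 0.261, 0.211 to 0.322) and *NXPH1* (21.0 against 132 CPM). The summed level of *CXCL14* rests on few cells, and its share was 10.1% against 18.8% of cells with and without *PROX1*. *NXPH1* had no UMI in the 27 *PROX1* cells of set 1, against 47.8 CPM without *PROX1*, so its fall is not shown in that set. *SP8* (127 with, 458 without) went with 6 higher genes (0.112%), among them *CCK* (826 against 259.5 CPM), and 31 lower (0.58%), among them *DCC* (24.2 against 78.6 CPM). In set 1 *DCC* had no UMI in the 13 cells with *SP8*, against 37.1 CPM without, so that set does not show a fall. The summed level of *CCK* rests on few cells, and its share was 23.6% against 14.0% of cells with and without *SP8*. The higher and lower genes of each of these splits were under 1% of the genes compared.

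*MEIS2*, found in 60 cells, went with 45 higher genes (0.842%) and 110 lower (2.06%). The higher ones included the radial glia genes *VIM* (389 against 58.5 CPM) and *FABP7* (4258 against 1115 CPM), the growth factor gene *PTN* (679 against 182 CPM), the cell cycle gene *CKS2* (251 against 44.4 CPM) and *ADGRV1* (256 against 44.4 CPM). *CCK* was lower (138 against 434 CPM), though its summed level rests on few cells. *MEIS2* was found in 19.2% of set 1 and 8.98% of set 2, and in 70.1% of *NEUROD6* and 90.6% of progenitor cells, and the part of other cells' transcripts in this split was not tested. Without the 18 cells with pyramidal genes the counts were 36 and 127.

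Splits by *CCK*, *CXCL14* and *TAC3* were added after seeing the data. *CCK* (94 with, 491 without) went with 46 higher genes (0.86%) and 77 lower (1.44%). Besides *KIT*, *SYNPR* and *CXCL14*, the muscarinic receptor gene *CHRM3* (1098 against 292 CPM, ratio 3.77, 3.23 to 4.39) and the calcium-activated potassium channel gene *KCNN2* (183 against 48.5 CPM) were higher. The ephrin gene *EFNA5* (10.1 against 104 CPM, ratio 0.0974, 0.0198 to 0.291), *NKAIN3* (33.8 against 212 CPM), *CPNE8* (20.3 against 127 CPM), *ASAP2* (27.0 against 129 CPM) and *PTPRZ1*, a receptor phosphatase of immature cells (20.3 against 92.2 CPM), were lower. In set 1, with 12 *CCK* cells, *EFNA5*, *NKAIN3* and *CPNE8* had no UMI, against 45.4, 83.3 and 83.3 CPM. That set therefore does not show a fall of these 3 genes. *ASAP2* and *PTPRZ1* had a single UMI each there (32.6 CPM, against 106 and 121 CPM), too few counts to show a 2-fold fall. *CXCL14* (90 with, 495 without) went with 52 higher genes (0.973%) and 60 lower (1.12%). *CHRM3* (1222 against 263 CPM), *ZNF385D* (1022 against 212 CPM), *CADPS2* (240.3 against 32.6 CPM) and the netrin receptor gene *UNC5D* (328 against 69.1 CPM) were higher, and *ID4* (118 against 499 CPM), *SLIT1* (37.2 against 129 CPM), *PTPRZ1* (23.7 against 91.3 CPM), the chromatin remodeler *CHD7* (64.3 against 189 CPM) and *S100A10* were lower. In set 1, with 10 *CXCL14* cells, *SLIT1* had no UMI against 103 CPM, so that set does not show its fall. *PTPRZ1*, *CHD7* and *S100A10* were at 37.2 CPM each in those cells, from a single UMI each, against 118, 162 and 133 CPM. *TAC3* (220 with, 365 without) went with 23 higher genes (0.43%), among them *CCK* (834 against 96.2 CPM), *CHRM3* (691 against 278 CPM), *TENM3* (156 against 57.3 CPM), *KIAA1217* (172 against 42.2 CPM) and *MAF* (415 against 173 CPM), and 15 lower (0.281%), among them *NCAM2* (257 against 589 CPM), *CPNE8* (39.7 against 152 CPM) and *ZEB1* (49.2 against 105 CPM). In set 1 *KIAA1217* and *TENM3* were each at 95.7 against 30.0 CPM, on few UMIs. *CPNE8* had a single UMI there in the cells with *TAC3* (16.0 against 100 CPM). The summed level of *CCK* rests on few cells, and its share was 27.3% against 9.32% of cells with and without *TAC3*. *CHRM3* was among the higher genes named in all 3 of these splits, which share cells.

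The barcode sets of the *ADARB2* interneurons were also set against each other. Of 5347 genes, 5 had a 95% interval of the ratio wholly above 2-fold in set 2 and 7 wholly below. The former were *INPP4B* (104 CPM in set 1 and 341 CPM in set 2), *GPC6*, *LHFPL3*, *ABCE1* and *LRCH3*. The latter included *APOA1* (412 CPM in set 1 and 12.2 CPM in set 2), *IGFBP7* (412 CPM in set 1 and 20.1 CPM in set 2), *CLIC1*, *S100A6*, *ZBTB18* and *CKS2*. *ZBTB18* is a gene of excitatory neurons. *PROX1* (277 and 223 CPM), *SP8* (98.3 and 97.7 CPM) and *TAC3* were at similar levels in both, while *CXCR4* was lower in set 1 (258 CPM) than in set 2 (543 CPM).

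The same rule with mouse gene symbols found 89 of 17765 cells with 750 genes in the sorted E18 mouse cortex, both libraries together (0.501%, 0.403 to 0.616), with a median of 3195 UMIs. Species, stage, sorting and genotype differ, so the values are given side by side with no comparison. Among the 89 cells, *Nr2f2* was found in 75.3%, *Nr2f1* in 73.0%, *Prox1* in 65.2%, *Sp8* in 48.3% and *Sox6* in 7.87%. The 585 ferret cells had *NR2F2* in 54.7%, *NR2F1* in 68.5%, *PROX1* in 39.0%, *SP8* in 21.7% and *SOX6* in 9.06%. *Sox2* was found in 49.4% of the mouse cells and *SOX2* in 54.5% of the ferret cells. *Galntl6* was found in 4 of the 89 mouse cells (4.49%, 1.24 to 11.1), and *GALNTL6* in 98.1% of the ferret cells. *Tac2*, the mouse gene for neurokinin B, was found in 10.1%, *Cxcl14* in 24.7% and *Cck* in 5.62% of the mouse cells.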

How the data were processed

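Cells of E39 ferret cortex (2 samples, 1 embryo) and of sorted E18 mouse cortex (2 samples) were analysed. Reads were processed by the authors in Cell Ranger, and raw, unnormalized UMI counts were deposited in 1 table per species, with 22008 ferret and 17170 mouse genes. Of 292 genes in the lists, 11 were not in the ferret table. Its 23482 cells are the number that the paper gives after filtering. The submitters' processing notes also list StringTie, Seurat 3 and mm10. The ferret build and annotation are not given in the sources used here, so no coordinates are printed, and genes are named as in the table. Barcodes name no sample.

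The cells and gene lists were chosen with earlier results of these data known. Some genes are not reported here. No annotation of cells was used, no clustering was made and no doublets were removed. Of the gene lists, 25 were compared. Shares have exact Clopper-Pearson, CPM exact Poisson and ratios of CPM exact conditional binomial 95% intervals (python 3.11.15, scipy 1.17.1, numpy 2.4.6, pandas 2.3.3). Comparisons used genes with at least 50 UMIs in both cell sets together, with 1 CPM added for log2 ratios and the genes of the rule left out. A count of 0 was given the limit of 3 counts. Expected shares at 2000 UMIs per cell are hypergeometric expectations. Named genes were those of the lists, the 12 in each direction (5 for splits) with the largest log2 ratio and at least 100 UMIs, and the 10 with the largest ratio of shares, provided that 10% of the cells had a UMI. *S100A10*, *GPC6*, *LHFPL3*, *ABCE1*, *LRCH3*, *APOA1*, *IGFBP7*, *CLIC1*, *S100A6* and *ZBTB18* are named as members of small counts. The code was tested on simulated counts.

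Alternatives were 1000 genes per cell, the study's limits of 5000 genes and 10% mitochondrial transcripts, 3 of the 7 genes, 2 *ADARB2* UMIs, each set alone, cells with pyramidal genes left out, median-ratio scaling, 10 CPM added, at least 10 or 200 UMIs, pooled cells and *LHX6* cells whatever *SST*. The study's limits removed no *ADARB2* interneuron, so that alternative could not change values within these cells.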

Additional observations from a re-analysis of the deposited data

How the results depend on the processing

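No paired analysis was possible because the numeric ending of the barcodes could not be tied to a sample and all cells come from 1 embryo. The share of *ADARB2* interneurons was 0.717% in set 1 only and 3.92% in set 2 only. Set 1 only gave 79.5% of them with 2 inhibitory genes and 9.59% with 2 pyramidal genes. Over all 585 cells the share with 2 inhibitory genes was 84.1% at an expected 2000 UMIs per cell and 64.1% without *GALNTL6*, for which set 1 had 61.3% and 42.5%, and the median share of the 8 inhibitory genes went from 33.3% to 26.7% at 2000 UMIs. Against *LHX6* or *SST* cells, the counts of higher and lower genes were 61 and 44 in set 1 only, 431 and 309 with at least 10 UMIs, and 100 and 79 with at least 200 UMIs, and the lower genes were 330 in set 2 only and 327 in pooled cells. Against *NEUROD6* cells, higher and lower genes were 1699 and 2261 in set 1 only and 336 and 212 with 10 CPM added, with 1170 lower in set 2 only and 1129 higher in pooled cells. Within the *ADARB2* interneurons, leaving out those with pyramidal genes gave 5 higher and 1 lower gene with *NR2F2* and 2 higher with *PROX1*. These counts therefore rest on the thresholds, and the cause of the other shifts was not tested. Over the alternatives tried, the other 63 values stayed within the limits set for a change. Of the named genes, only the 48 ratios named as the largest in each direction against the 2 cell sets were recomputed. They kept their direction and a size above 2-fold in 575 recomputed values, of which 172 moved past those limits. These ratios had been chosen as past 2-fold in both sets, so each set alone could not turn them. Depth limits what could be read, since a gene absent from the 44 *LHX6* or *SST* cells of set 1 may reach 23.1 CPM.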
